A study of Homo sapiens with 6 samples.

Results

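The genes described here were 9 targets of the tumour suppressor p53 in the bladder cancer line SW780 with and without exposure to the antibody–drug conjugate RC48: CDKN1A, MDM2, GDF15, BBC3, TP53I3, SESN1, ZMAT3, RRM2B and TP53INP1. They were taken by gene symbol from tables of 16390 genes, and all 9 passed the filter on low counts that left 13055 genes for testing. SW780 is an established human line that the study uses as a luminal bladder cancer type, and RC48 (disitamab vedotin) is an antibody against ERBB2 whose payload, monomethyl auristatin E, blocks microtubules. The data are 3 Control libraries and 3 libraries of cells exposed to RC48, all of total RNA, and the labels name no other difference between the groups. The study's methods call the exposed cells stable, and the exposure time is not given in the sources used here. Nothing states that the libraries of a group came from separate cultures, so the p-values measure the spread between these libraries, which may be technical. In RNA from whole cultures, a change in every cell cannot be told apart from a change in some of the cells.

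The protein p53 is a transcription factor that is kept low by the ubiquitin ligase MDM2 and is stabilised by DNA damage and other stresses. Cells that are held in mitosis for long, as happens under microtubule inhibitors, can accumulate p53, which is why its targets are of interest after a conjugate with such a payload. Its targets include the cell cycle inhibitor p21, the product of CDKN1A, genes that promote apoptosis, genes that limit oxidative stress or supply repair, and MDM2 itself, which closes a feedback loop.

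After RC48 exposure, CDKN1A rose, and the 9 targets did not move as 1 group. CDKN1A, BBC3, TP53I3 and GDF15 had higher values in every RC48 library than in every Control library, whereas MDM2, SESN1, ZMAT3, RRM2B and TP53INP1 had RC48 values on both sides of the Control values. CDKN1A was the 1 member of 9 with an adjusted p-value under 0.05 by the quasi-likelihood method of edgeR after Benjamini-Hochberg adjustment, where 2.21% of all genes tested were called. These were 288 genes, 258 of them higher after RC48 (1.98%) and 30 lower (0.23%), while 2499 genes had an unadjusted p-value under 0.05. The median log2 fold change of the 9 members was −0.07, with 4 positive and 5 negative values, beside a median of 0.02 over all genes tested. Groups did not overlap for 31.5% of all genes tested, with RC48 higher in 17.4%, and with RC48 higher in 4 of the 9 members.

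The RC48 libraries differed strongly from each other, in a way that followed the base composition of the transcripts. Estimated counts summed to between 16453233 and 17988030 per library, and values are given as CPM, counts scaled to library size after TMM normalization, unless TPM is named. Pairs of libraries were compared over 11977 genes by chi-square divided by its degrees of freedom, near 1 for sampling noise alone. It was 1.44 to 11.6 between Control libraries and 22.3 to 135.6 between RC48 libraries. Across 13018 genes, Spearman's rho between GC content and the log2 ratio to the Control mean took the values 0.74, −0.01 and 0.57 in RC48 replicates 1, 2 and 3, given as a description since genes are not independent. In the bin with the lowest GC content of 10 bins, the median log2 ratio was −0.97, 0.01 and −0.37 in RC48 replicates 1, 2 and 3, and in the bin with the highest it was 0.67, 0.01 and 0.25. For the members, the pathway lists and the genes named from these, the value after subtracting this trend from every library (GC correction) is therefore given beside the uncorrected one. With this correction 887 genes were called (6.79%), 570 of them higher and 317 lower. Of the luminal markers, GATA3, FOXA1, PPARG and ELF3 were each at 87.7 CPM or more in every library, while KRT20 lay between 0.486 and 2.03 CPM and was called lower after RC48 (log2 fold change −1.55, SE 0.31, edgeR adjusted p = 0.0489). The luminal list also held UPK2, UPK1A and UPK3A. Its 8 markers summed to 897 to 927 CPM in Control and 873 to 1095 CPM in RC48 libraries. The 5 basal markers summed to 511 to 529 and 525 to 561 CPM. The fibroblast markers sought were COL1A1, COL1A2, COL3A1, DCN, LUM and PDGFRB. The 5 of them listed summed to 444 to 475 CPM in Control and 444.5 to 558 CPM in RC48 libraries. DCN and PDGFRB were at or under 0.118 CPM, so nearly all of that sum lay in the other fibroblast markers. Of 3 fibroblast markers tested, 0 were called and 3 had an unadjusted edgeR p-value under 0.05. Their log2 ratios to the Control mean ran from −1.30 to 0.96 in RC48 replicate 1, −0.55 to 0.62 in replicate 2 and −0.83 to 0.84 in replicate 3. The leukocyte marker PTPRC was at or under 0.0607 CPM in every library, and the 7 leukocyte markers listed summed to 22.9 to 23.8 CPM in Control and 26.8 to 46.2 CPM in RC48 libraries, mostly CD68. The part of these markers in the results below was not tested.

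**Figure D1:**
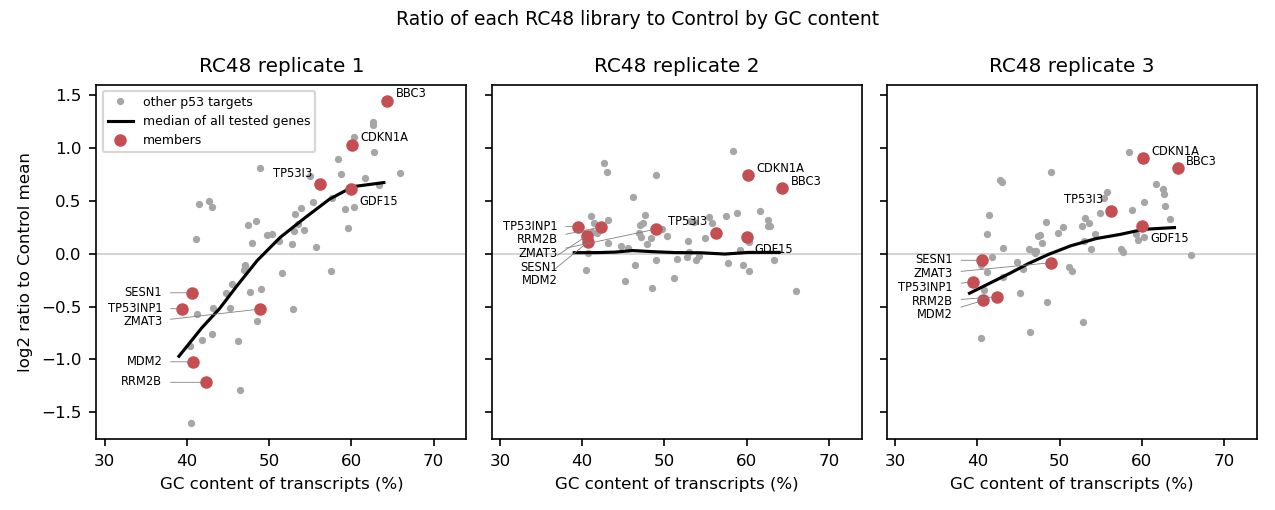
Ratio to the Control mean on the log2 scale (vertical axis), in 1 panel per RC48 library, against GC content of the transcripts in percent (horizontal axis), with the 9 members as labelled red points, 54 other p53 targets as grey points and the median of all genes tested, in 10 bins of GC content, as a black line. The members spread from −1.22 to 1.45 in replicate 1, and not all lie near the line. There ZMAT3 is at −0.52 where its bin median is −0.07, and BBC3 at 1.45 where its bin median is 0.67. All 9 lie above 0 in replicate 2, where the line is flat.

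Because p53 acts by binding DNA, the promoter sequences of the members were read for its response element, which consists of 2 adjacent decamers with a C and a G at fixed core positions. Windows of 300 bases, 250 before and 50 from the start of a RefSeq transcript (GRCh38.p14), were found for 7 of the 9 members. RRM2B and TP53INP1 had no window. With no spacer between the decamers and up to 3 mismatches outside the 4 core bases, a match was present in 1.12% of all 35116 windows and 1.37% of 27305 genes. The element reads alike on both strands, so 1 strand was searched. Among the members it was present in 3 genes of 7, MDM2, GDF15 and SESN1, and in 4 of 13 windows. MDM2 and SESN1 also had windows without a match, which are not shown. Among other p53 targets a match was present in 10 genes of 45 (22.2%). A match here is a likeness of letters and not a measured site. The 250 bases before the start are shown for CDKN1A, the member that was called, in which no match was found, and for MDM2 and SESN1, whose matches are in capitals. The windows shown are chr6:36678464-36678713 on the plus strand for CDKN1A, chr12:68808767-68809016 on the plus strand for MDM2, at its internal promoter, and chr6:109008989-109009238 on the minus strand for SESN1. For GDF15 the match begins at base 29 from the start and is shown alone, at chr19:18386186-18386205 on the plus strand.
CDKN1A: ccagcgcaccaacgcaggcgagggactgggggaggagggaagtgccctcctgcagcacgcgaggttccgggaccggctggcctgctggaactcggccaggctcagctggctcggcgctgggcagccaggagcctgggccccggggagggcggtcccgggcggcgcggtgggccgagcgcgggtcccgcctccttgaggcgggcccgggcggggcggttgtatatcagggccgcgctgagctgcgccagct
MDM2: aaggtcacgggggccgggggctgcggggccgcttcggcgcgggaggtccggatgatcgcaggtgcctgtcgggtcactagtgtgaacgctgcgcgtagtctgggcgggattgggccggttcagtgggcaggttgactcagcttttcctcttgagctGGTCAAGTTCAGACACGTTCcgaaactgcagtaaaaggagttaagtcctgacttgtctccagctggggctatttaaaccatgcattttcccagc
SESN1: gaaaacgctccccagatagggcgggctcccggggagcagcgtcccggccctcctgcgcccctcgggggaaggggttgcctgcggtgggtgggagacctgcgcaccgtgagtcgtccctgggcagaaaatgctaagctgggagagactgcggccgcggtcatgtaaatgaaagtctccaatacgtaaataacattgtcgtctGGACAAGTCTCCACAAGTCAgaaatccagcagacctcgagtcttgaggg
GDF15: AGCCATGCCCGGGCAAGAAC
The match of MDM2 begins 94 bases before the start with 2 mismatches, that of SESN1 begins 49 bases before the start with 3, and that of GDF15 has 3. The strongest known p53 elements of CDKN1A lie farther upstream than the bases shown.

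CDKN1A (NCBI gene 1026) encodes p21, the inhibitor of cyclin-dependent kinases through which p53 arrests the cell cycle. It was at 201.9, 202.4 and 195.0 CPM in Control replicates 1, 2 and 3, and at 408.4, 333.9 and 373.9 CPM in RC48 replicates 1, 2 and 3. No RC48 library came near the Control range, and the spread within RC48 was larger than within Control. The means were 199.7 ± 4.14 and 372 ± 37.3 CPM (SD, n = 3 each), and the log2 fold change was 0.90 (SE, standard error of the fit, 0.12, edgeR adjusted p = 0.00917), or 1.86-fold. The two-sided exact permutation test gave p = 0.1, the smallest value that 3 against 3 libraries allow. After GC correction the log2 fold change was 0.61 (edgeR adjusted p = 0.0115), so the rise was smaller and still called. Leaving out 1 library at a time gave log2 fold changes from 0.82 to 0.97. The call was lost in 4 fits: leaving out Control replicate 1, 2 or 3 gave an edgeR adjusted p-value of 0.0928, 0.093 or 0.0904, and leaving out RC48 replicate 3 gave 0.0779. It was 1.28e-04 without RC48 replicate 1 and 0.00352 without RC48 replicate 2.

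BBC3 (NCBI gene 27113) encodes PUMA, a BH3-only protein that triggers apoptosis by neutralising the survival members of the BCL2 family. It was at 9.71, 11.1 and 8.89 CPM in the Control libraries and at 27.1, 15.2 and 17.4 CPM in the RC48 libraries, from 151 to 446 estimated counts. All RC48 libraries lay above all Control libraries, with replicate 1 apart from the other 2. The means were 9.89 ± 1.10 and 19.9 ± 6.34 CPM (SD, n = 3 each), and the log2 fold change of 1.01 (SE 0.24) did not pass the threshold (edgeR adjusted p = 0.0878). BBC3 had the largest log2 fold change of the members and also the highest GC content of them, 64.4%, where the median ratio of all genes was highest in RC48 replicates 1 and 3. After GC correction the log2 fold change was smaller, 0.66, and was called (edgeR adjusted p = 0.0109). It was also called without RC48 replicate 1 at 0.71 (edgeR adjusted p = 0.00811), without RC48 replicate 2 at 1.16 (edgeR adjusted p = 0.0164), with DESeq2 at 0.98 (adjusted p = 0.00608) and with the replicate number as a block at 0.97 (edgeR adjusted p = 0.0413). These fits called 6.79%, 6.82%, 28.3%, 4.13% and 2.54% of all genes in that order. Over the 17 alternatives BBC3 was called in 7, and its adjusted p-values ranged from 0.00608 to 0.377.

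GDF15 and TP53I3 were the other members without overlap between the groups, with smaller differences that were not called. GDF15 (NCBI gene 9518), a secreted cytokine of the TGF-beta superfamily that many stresses induce, was at 50.8, 51.3 and 44.8 CPM in Control and at 74.7, 54.4 and 58.6 CPM in RC48 libraries. The difference on the log2 scale was 0.35 (SE 0.15, edgeR adjusted p = 0.264) and was 0.06 after GC correction (edgeR adjusted p = 0.703). TP53I3 (NCBI gene 9540), which encodes a quinone oxidoreductase-like protein linked to oxidative stress, was at 49.5, 52.9 and 49.6 CPM in Control and at 80.1, 58.1 and 67.2 CPM in RC48 libraries. For both genes RC48 replicate 1 was highest and RC48 replicate 2 came close to the highest Control library. The log2 fold change of TP53I3 was 0.43 (SE 0.15, edgeR adjusted p = 0.199), 0.20 after GC correction (edgeR adjusted p = 0.147), and called at 0.54 without RC48 replicate 2 (edgeR adjusted p = 0.0298), a fit in which 28.3% of all genes were called.

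**Figure D2:**
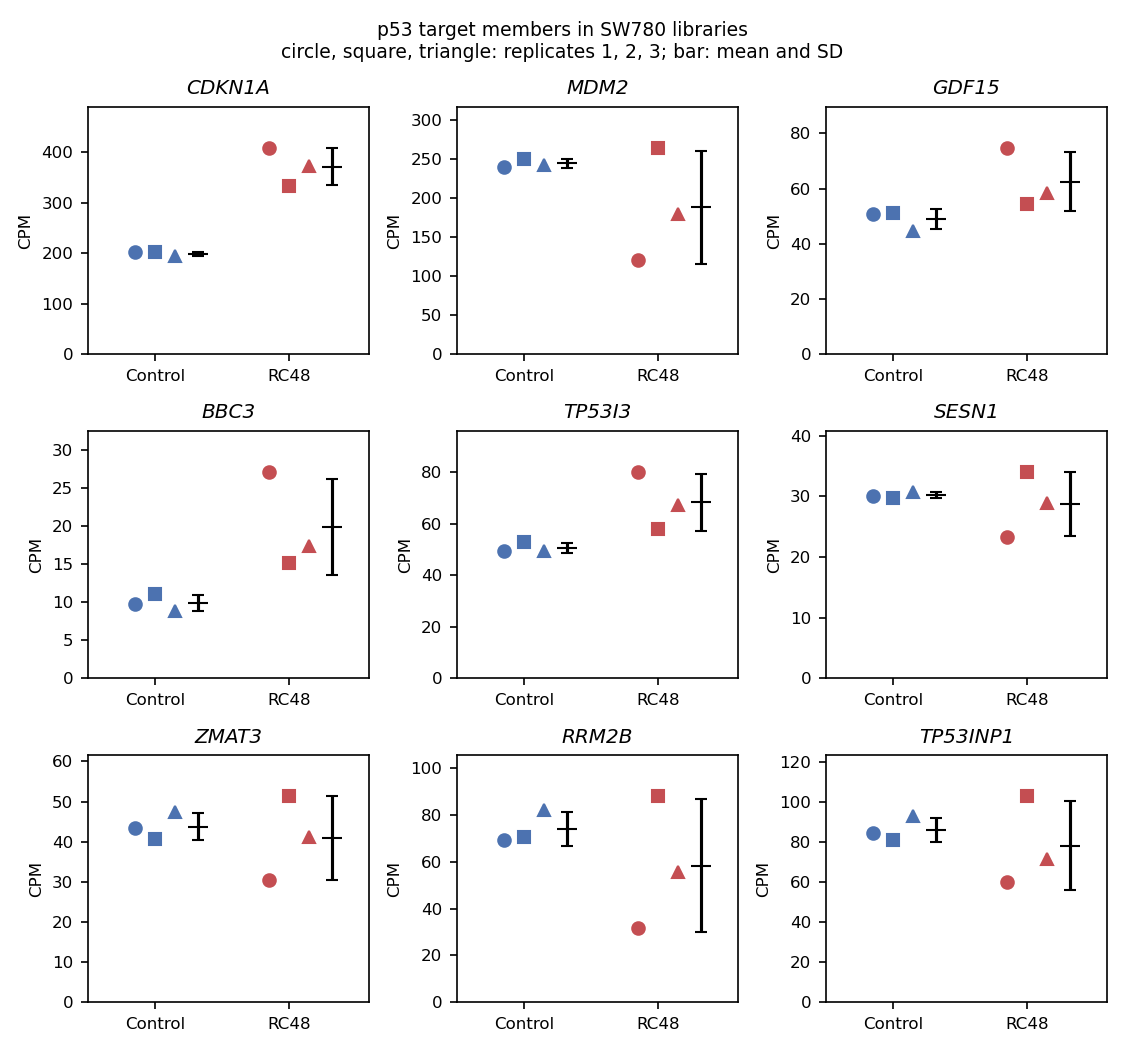
CPM (vertical axis, from 0) of the 9 members in each library of Control (blue) and RC48 (red), with circles, squares and triangles for replicates 1, 2 and 3 and black bars for the mean and SD of 3 libraries. The RC48 points of CDKN1A, GDF15, BBC3 and TP53I3 all lie above the Control points, and those of the other 5 genes spread around them with replicate 2 highest and replicate 1 lowest.

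MDM2 (NCBI gene 4193), the ligase that binds p53 and marks it for degradation, was not called. It was at 240.0, 250.9 and 242.8 CPM in the Control libraries and at 120.3, 264.1 and 180.1 CPM in RC48 replicates 1, 2 and 3. RC48 replicate 2 lay just above the Control libraries and the other RC48 libraries below them, so the groups overlapped. The means were 244.6 ± 5.70 and 188.2 ± 72.2 CPM (SD, n = 3 each), and the log2 fold change was −0.38 (SE 0.25, edgeR adjusted p = 0.371; exact permutation p = 0.4, two-sided). After GC correction it was −0.08 (edgeR adjusted p = 0.669). The value rested on single libraries: it was −0.15 without RC48 replicate 1 (edgeR adjusted p = 0.561), and −0.70 and called lower without RC48 replicate 2 (edgeR adjusted p = 0.0299).

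For the remaining members, SESN1, TP53INP1, RRM2B and ZMAT3, as for MDM2, the RC48 values lay on both sides of the Control values. SESN1 (NCBI gene 27244), a sestrin that restrains the growth kinase mTORC1, was at 30.1, 29.7 and 30.7 CPM in Control and at 23.3, 34.0 and 28.9 CPM in RC48 libraries. TP53INP1 (NCBI gene 94241), a nuclear protein that acts with p53 in stress responses and in autophagy, was at 84.9, 81.2 and 93.0 CPM in Control and at 60.1, 103.1 and 71.8 CPM in RC48 libraries. In both, RC48 replicate 2 was above and RC48 replicate 1 below all Control libraries. Their log2 fold changes were −0.07 (SE 0.16, edgeR adjusted p = 0.783) and −0.14 (SE 0.20, edgeR adjusted p = 0.653). Without RC48 replicate 1 they were 0.0518 and 0.00994. Both signs also turned after GC correction, to 0.28 for SESN1 (edgeR adjusted p = 0.113) and 0.23 for TP53INP1 (edgeR adjusted p = 0.179), and neither was called.

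RRM2B (NCBI gene 50484), the p53-induced small subunit of ribonucleotide reductase that supplies nucleotides for DNA repair, was at 69.2, 70.6 and 82.1 CPM in Control and at 31.6, 87.9 and 55.5 CPM in RC48 libraries. ZMAT3 (NCBI gene 64393), a zinc finger RNA-binding protein, was at 43.3, 40.6 and 47.5 CPM in Control and at 30.4, 51.3 and 41.2 CPM in RC48 libraries. Again RC48 replicate 2 was highest and RC48 replicate 1 lowest of the 6 libraries. The log2 fold change of RRM2B was −0.34 (SE 0.32, edgeR adjusted p = 0.502), −0.12 after GC correction (edgeR adjusted p = 0.713) and −0.76 without RC48 replicate 2, where it was called lower (edgeR adjusted p = 0.042). That of ZMAT3 was −0.10 (SE 0.20, edgeR adjusted p = 0.757), −0.09 after GC correction and 0.0719 without RC48 replicate 1.

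**Figure D3:**
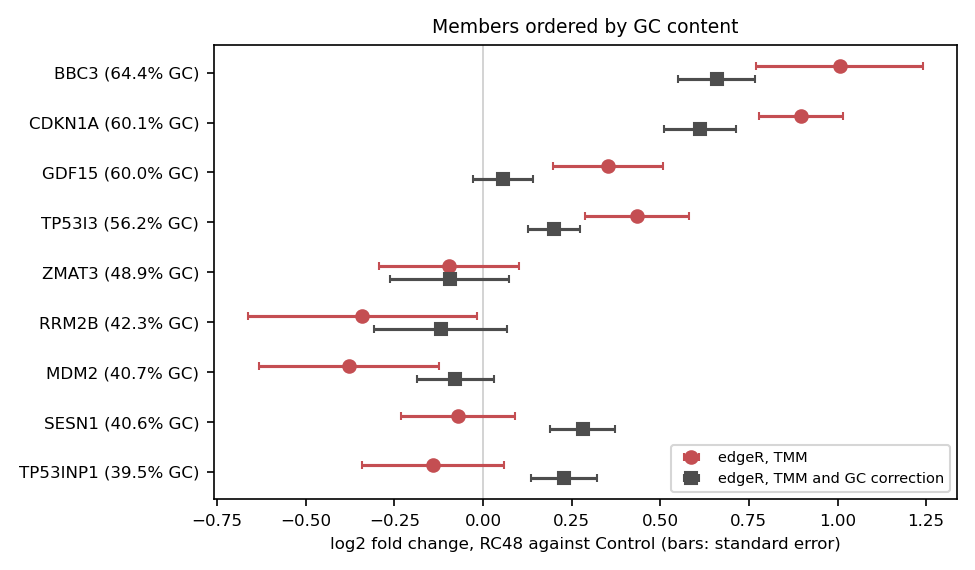
Log2 fold change of RC48 against Control (horizontal axis) for the 9 members, ordered by GC content in percent, from edgeR with TMM (red circles) and with GC correction added (grey squares), with bars for the standard error. Without correction the 4 members of highest GC content are positive and the other 5 negative; with it CDKN1A and BBC3 remain at 0.61 and 0.66 and the other 7 lie between −0.12 and 0.28.

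The split between the members followed their base composition. The 4 members with a positive log2 fold change had a GC content of 56.2% to 64.4% and the 5 with a negative one of 39.5% to 48.9%, where the median of all genes tested was 49.9%. The order of the RC48 libraries divided them in the same way. CDKN1A, BBC3, GDF15 and TP53I3 were highest in replicate 1, then 3, then 2, an order that 38.0% of all genes tested shared, and the other 5 were highest in replicate 2, then 3, then 1, as were 38.4% of all genes. In RC48 replicate 2, whose ratios had no trend with GC content, the log2 ratio to the Control mean was positive for all 9 members, from 0.11 for MDM2 to 0.74 for CDKN1A with a median of 0.23, and it was positive for 52.4% of all genes. Of 54 other p53 targets, 39 had a positive ratio in this library (72.2%), with a median of 0.16. This is 1 library, so no test was made. In replicates 1 and 3 the ratio was positive for 4 of the 9 members each time, and for 51.3% and 50.3% of all genes. After GC correction, 6 of the 9 log2 fold changes were positive with a median of 0.20, and CDKN1A and BBC3 were called higher. In that fit the median of all genes was −0.01, and 570 of 13055 were called higher and 317 lower. The part of GC content in the difference between the 2 sets of members was not tested beyond this correction.

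By length-normalised level, the members spanned a wide range in untreated cells. CDKN1A was the most abundant with a mean of 192.9 ± 6.30 TPM in Control (SD, n = 3), followed by GDF15 at 97.1 ± 1.92, TP53I3 at 71.7 ± 2.12 and MDM2 at 59.2 ± 2.96 TPM. Each of these lay above the next in every Control library. RRM2B at 29.2 ± 4.39 and TP53INP1 at 28.6 ± 3.51 TPM came next and did not differ beyond their spread, and SESN1 at 21.5 ± 1.32, BBC3 at 13.8 ± 1.23 and ZMAT3 at 8.93 ± 1.15 TPM closed the order, separated in every Control library. In RC48 libraries, with TPM of replicate 2 computed from its counts, CDKN1A reached 336 ± 8.26 and BBC3 27.4 ± 7.72 TPM (SD, n = 3). The RC48 libraries of CDKN1A were at 341.0, 326.4 (computed) and 340.5 TPM.

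Besides MDM2, 2 further inhibitors of p53 were followed. MDM4, the relative of MDM2 that masks the activation domain of p53, was at 50.3, 48.7 and 49.3 CPM in Control and at 26.0, 43.9 and 34.0 CPM in RC48 libraries. All RC48 values of MDM4 lay below the Control values, and its log2 fold change was −0.51 (SE 0.19, edgeR adjusted p = 0.226), −0.26 after GC correction (edgeR adjusted p = 0.106), and called lower without RC48 replicate 2 (edgeR adjusted p = 0.0227). PPM1D, a phosphatase that p53 induces and that dampens its signalling, had a log2 fold change of −0.15 (SE 0.14, edgeR adjusted p = 0.479) and −0.16 after GC correction.

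Of a list of 54 further p53 targets, 3 were called, all higher, where 2.21% of all genes were called. Of these 54, 38 had a positive and 16 a negative log2 fold change, with a median of 0.14 beside 0.02 over all genes tested, of which 51.4% were positive. After GC correction 33 were positive and 21 negative, with a median of 0.11, beside 6393 positive and 6662 negative over all genes tested. RC48 was higher without overlap in 19 of the 54, and in 17.4% of all genes. It was lower without overlap in 4 of the 54, and in 1841 of all 13055 genes. By role, the median was 0.30 over 8 cell cycle genes, 0.16 over 15 genes of cell death, 0.08 over 4 of DNA repair and 0.10 over 10 of metabolism and autophagy. It was −0.14 over 2 feedback genes and 0.22 over 15 genes of other roles. The medians by role were taken without GC correction. GADD45A, a growth arrest gene that interacts with PCNA and p21, rose from 74.5, 85.1 and 73.6 CPM in Control to 144.8, 152.7 and 151.6 CPM in RC48 libraries. All RC48 values lay far above the Control values and close together. Its log2 fold change of 0.95 (SE 0.12, edgeR adjusted p = 0.00685) was close to that of CDKN1A, and 0.71 after GC correction (edgeR adjusted p = 0.036).

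INPP1, an inositol polyphosphate phosphatase, rose from 50.9, 53.4 and 51.8 CPM to 91.5, 87.2 and 89.1 CPM. With a GC content of 49.0%, near the median of all genes, its log2 fold change was 0.78 without and with GC correction (SE 0.11 without, edgeR adjusted p = 0.0128 and 7.68e-04). DRAM1, a lysosomal membrane protein that links p53 to autophagy, rose from 165.7, 156.2 and 154.9 CPM to 225.0, 287.3 and 258.1 CPM, although its GC content of 42.7% lay among those of the members that did not rise. Its log2 fold change was 0.69 (SE 0.13, edgeR adjusted p = 0.037) and 0.96 after GC correction (edgeR adjusted p = 6.87e-04). GADD45A lost its call without Control replicates 1 or 3 or RC48 replicate 3, with edgeR adjusted p-values of 0.0908, 0.0719 and 0.0743. INPP1 and DRAM1 lost theirs without any 1 Control library or RC48 replicate 3, with edgeR adjusted p-values of 0.102 to 0.149 for INPP1 and 0.211 to 0.248 for DRAM1. DRAM1 was called in 8 of the 17 alternatives, and its call was also lost with the replicate block (edgeR adjusted p = 0.061), which left 2 of the 54 called, with raw library sizes, and in limma on log2 TPM with 5 or 6 libraries (adjusted p = 0.051 and 0.146). After GC correction 6 of the 54 were called higher and 0 lower, the additional ones being NINJ1, PLK2 and RAP2B. In that fit 570 of all 13055 genes were called higher and 317 lower. The lowest log2 fold changes of the list were those of KITLG, the ligand of the receptor KIT, at −0.73 (SE 0.32, edgeR adjusted p = 0.26), and of the repressor E2F7 at −0.64 (SE 0.28, edgeR adjusted p = 0.265), and neither was called. After GC correction they were −0.44 and −0.56.

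**Figure D4:**
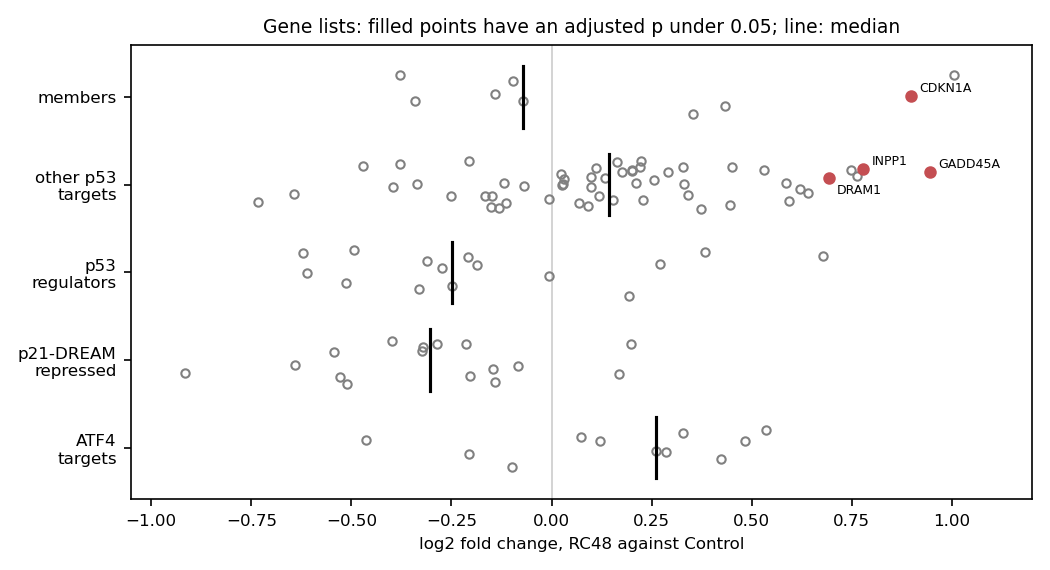
Log2 fold change of RC48 against Control (horizontal axis) of the tested genes of 5 lists, with filled red points for an adjusted p-value under 0.05, open points for the others and a black line for the median of each list. CDKN1A is the filled point among the 9 members, GADD45A, INPP1 and DRAM1 are those among 54 other targets, and the medians without GC correction run from −0.30 for the genes repressed through p21 to 0.26 for the ATF4 targets (−0.26 and 0.06 with it).

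Among genes that act on p53, most had negative log2 fold changes and none was called. Of 15 kinases, cofactors, relatives and regulators of p53 tested, 4 had a positive and 11 a negative log2 fold change, with a median of −0.25. Of all 13055 genes tested, 6710 were positive and 6345 negative. After GC correction 5 of the 15 were positive and 10 negative with a median of −0.13, beside 6393 positive and 6662 negative over all genes. In RC48 replicate 2, which had no GC trend, 6 of the 15 ratios to the Control mean were positive with a median of −0.02. In that library 52.4% of all genes were positive. The counts called were 0 of 15 with edgeR and with DESeq2, while 5 had an unadjusted edgeR p-value under 0.05, beside 2499 of all 13055 genes. The checkpoint kinases CHEK2 and CHEK1 had the lowest values, −0.62 (SE 0.25, edgeR adjusted p = 0.248) and −0.61 (SE 0.19, edgeR adjusted p = 0.177), and CHEK2 was at −0.50 after GC correction. CHEK1 was at 80.4, 77.4 and 76.7 CPM in Control and at 37.5, 63.5 and 52.4 CPM in RC48 libraries, without overlap, and after GC correction it was called lower at −0.40 (edgeR adjusted p = 0.0326). The acetyltransferases KAT5 and CREBBP had the highest values among genes of at least 10 CPM, 0.38 (SE 0.16, edgeR adjusted p = 0.256) and 0.27 (SE 0.18, edgeR adjusted p = 0.365), and 0.12 and 0.23 after GC correction.

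Genes of the cell cycle that are known to be repressed when p21 accumulates, through the DREAM complex, had negative log2 fold changes in 14 of 16 cases. Their median was −0.30, and 6345 of all 13055 genes tested were negative. RC48 was lower without overlap in 8 of the 16, and in 1841 of all 13055 genes. It was higher without overlap in 0 of the 16. In RC48 replicate 2, which had no GC trend, 1 of the 16 ratios to the Control mean was positive, with a median of −0.22. In that library 52.4% of all genes were positive. Of the 16, 0 were called by edgeR and 5 had an unadjusted edgeR p-value under 0.05, beside 2499 of all 13055 genes. DESeq2 called 1, LMNB1, and 4.13% of all genes. LMNB1, which encodes the nuclear lamina protein lamin B1, was at 315.0, 309.7 and 318.7 CPM in Control and at 169.2, 235.4 and 200.4 CPM in RC48 libraries. The groups lay far apart, with a log2 fold change of −0.64 (SE 0.14, edgeR adjusted p = 0.0706) and −0.72 after GC correction (edgeR adjusted p = 0.0223). CDK1, the kinase that drives entry into mitosis, was at 151.3, 148.2 and 130.6 CPM in Control and at 30.6, 116.1 and 81.3 CPM in RC48 libraries. The log2 fold change of −0.91 was not called (SE 0.40, edgeR adjusted p = 0.265), it was −0.57 after GC correction, and its spread between RC48 libraries was wide. The mitotic genes PLK1 and CDC20 had the highest values of the list, 0.20 (edgeR adjusted p = 0.443) and 0.17 (edgeR adjusted p = 0.561), and −0.06 and −0.09 after GC correction. With that correction all 16 were negative with a median of −0.26, and 4 were called lower: BIRC5, E2F1, LMNB1 and MYBL2. Of all 13055 genes tested, 6662 were negative with that correction and 317 were called lower.

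Several p53 targets also answer to the stress factor ATF4, GDF15 among them, so ATF4 targets were counted beside them. Of 11 tested, 0 were called with edgeR and 3 had an unadjusted edgeR p-value under 0.05, beside 2499 of all 13055 genes. DESeq2 called 2, ATF3 and ATF5, and 4.13% of all genes. The median log2 fold change was 0.26, with 8 positive and 3 negative values, where 51.4% of all genes tested were positive. After GC correction the median was 0.06, with 6 positive and 5 negative values and TRIB3 called lower. Of all 13055 genes, 6393 were then positive and 317 called lower. ATF5 had 0.54 (SE 0.12, edgeR adjusted p = 0.0814) and CHAC1, which degrades glutathione, 0.48 (SE 0.14, edgeR adjusted p = 0.157), and after GC correction 0.24 and 0.18. At the other end were the cystine transporter gene SLC7A11 at −0.46 (SE 0.25, edgeR adjusted p = 0.305) and the asparagine synthetase gene ASNS at −0.21 (SE 0.12, edgeR adjusted p = 0.32), and after GC correction −0.10 and −0.06.

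The genes most like CDKN1A and MDM2 over the 6 libraries were searched among 9995 genes with a mean of at least 10 CPM, by the root mean square difference of log2 CPM centred on each gene's mean. For CDKN1A they were HLA-B at 0.045, TRIM16L at 0.0457 and TAP1 at 0.0462 on the log2 scale. HLA-B, a class I antigen whose reads may be shared with its close relatives, was at 164.9, 168.4 and 150.7 CPM in Control and at 343.6, 274.1 and 319.1 CPM in RC48 libraries, a log2 fold change of 0.95 (SE 0.13, edgeR adjusted p = 0.00979). TAP1, a subunit of the transporter that supplies peptides to class I antigens, had a log2 fold change of 0.81 (SE 0.12, edgeR adjusted p = 0.0166), and TRIM16L 0.89 (SE 0.13, edgeR adjusted p = 0.0166). After GC correction HLA-B, TAP1 and TRIM16L were at 0.67, 0.64 and 0.79 and were still called. Their GC contents were 59.7%, 54.6% and 51.3%, beside 60.1% for CDKN1A. For MDM2 the nearest were BLZF1 at 0.0307, SEC62 at 0.0311 and TBK1 at 0.033 on the log2 scale. Their GC contents of 41.3%, 40.9% and 38.6% lay close to the 40.7% of MDM2, and none of these 3 was called. SEC62 had 136.6, 140.7 and 136.5 CPM in Control and 71.8, 149.2 and 101.8 CPM in RC48 libraries, the same order of libraries as MDM2.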

How the data were processed

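RNA of SW780 cells was sequenced in 3 Control and 3 RC48 libraries. The authors used SOAPnuke to filter the reads, Bowtie2 to map them and RSEM to count, and deposited its expected counts per gene, which are not normalized; 11.7% to 15.0% of values per library are not whole. The authors also deposited TPM, normalized for length and depth, for 5 of the libraries used here. TPM of RC48 replicate 2 was computed from its counts and the lengths the other libraries imply; the same computation on the other libraries differed from the deposited TPM in the median (absolute log2) by 0.0367 for RC48 replicate 3, 0.184 for RC48 replicate 1 and 0.0102 to 0.0305 for Control. The submitters' processing notes name hg38 and limma. Versions and the annotation are not given in the sources used here.

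Counts were rounded, filtered with filterByExpr, normalized by TMM and compared, RC48 against Control without covariates, by edgeR 4.0.16 (R 4.3.3, quasi-likelihood, Benjamini-Hochberg over all genes, threshold 0.05). Exact permutation tests were two-sided on log2 CPM. GC content came from GENCODE transcripts for 16321 of 16390 genes (99.6%), and the GC correction subtracted a loess trend (span 0.3) per library as an offset. Library totals were 16453233 to 17988030 estimated counts. The test without GC correction was also run on simulated counts. These had no GC trend and the same dispersion in both groups, so they do not show how calls behave in the RC48 libraries.

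Named were the 9 members, MDM4, PPM1D, called genes of each list (up to 5 per direction), the 2 highest and 2 lowest log2 fold changes per list among genes of at least 10 CPM, and the 3 genes nearest in pattern to CDKN1A and MDM2. SEC62 values, the markers, further genes called by an alternative and RC48 replicate 2 as a library without GC trend were chosen after their values were seen. The members, the lists, the tests and the GC correction were chosen with earlier results of these data known. Alternatives were DESeq2 1.42.0, limma 3.58.1 on TPM (log2, pseudocount 1, over 5 or 6 libraries, or pseudocount 0.1 over 6), RLE factors or raw library sizes in place of TMM, a minimum of 10 counts per library or none, a replicate block, the GC correction, both together, and each library left out. CDKN2A of the regulator list was not analysed here, and 1 gene of that list is not reported here. Python 3.11.15, numpy 2.4.6, pandas 2.3.3, scipy 1.17.1 and matplotlib 3.10.9 were used.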

Additional observations from a re-analysis of the deposited data

How the results depend on the processing

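The number of genes called moved with the processing from 288 to 676 with DESeq2 (488 higher), 2711 with limma on log2(TPM+1) over 5 libraries (740 higher), 887 with GC correction (570 higher) and 564 with the replicate block and GC correction together (390 higher), and ran from 68 to 3726 with 1 library left out. The highest of these came without RC48 replicate 2 and the others were 897 without RC48 replicate 1, 93 without RC48 replicate 3 and 71, 78 and 68 without Control replicates 1, 2 and 3. In the same settings the count of members called, 1 otherwise, was 2 with DESeq2, 4 with limma on 5 libraries (BBC3 and CDKN1A higher, MDM2 and RRM2B lower), and 2 (BBC3 and CDKN1A) with GC correction, with the replicate block and with both. With 1 library left out it was 0 to 5: 0 without any Control library or RC48 replicate 3, 2 without RC48 replicate 1 and 5 without RC48 replicate 2. The share of all genes called was 2.21% in the main fit, 4.13% with DESeq2, 6.79% with GC correction, 6.82% without RC48 replicate 1 and 28.3% without RC48 replicate 2. Limma on 5 libraries called 2711 of 13055 genes. For every list, the highest count with 1 library left out came without RC48 replicate 2. For the other p53 targets the count called was 6 with DESeq2, 12 with limma on 5 libraries, 6 with GC correction alone or with the block, and 0 to 18 with 1 library left out. For the regulators of p53 it was 5 with limma on 5 libraries, 1 with GC correction and 0 to 6 with 1 library left out. For the genes repressed through p21 it was 1 with DESeq2, 7 with limma on 5 libraries, 4 with GC correction, 2 with the block and GC correction, and 0 to 6 with 1 library left out. For ATF4 targets it was 2 with DESeq2, 2 with limma on 5 libraries, 1 with GC correction (TRIB3, lower) and 0 to 4 with 1 library left out. The fit over 5 libraries is limma without RC48 replicate 2, whose TPM was computed; with 6 libraries limma called 213 genes. The cause of the differences was not tested.

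Over 153 refits of the members, 130 kept their direction and side of the threshold, 12 gained a call, 4 lost one (all CDKN1A) and 7 changed sign without a call. The latter were SESN1 at 0.281 with GC correction, 0.28 with the block and GC correction and 0.0518 without RC48 replicate 1, TP53INP1 at 0.227, 0.225 and 0.00994 in the same fits, and ZMAT3 at 0.0719 without RC48 replicate 1. With 1 library left out, these 3 ran from −0.21 to 0.0518, from −0.391 to 0.00994 and from −0.292 to 0.0719. Deviations of same-numbered libraries from their group means correlated across genes at 0.0020, −0.13 and 0.0048 for numbers 1, 2 and 3. For differently numbered libraries the correlations ran from −0.11 to 0.13. With 3 libraries per group and a GC trend in RC48 replicates 1 and 3, these values do not show whether the numbers pair the libraries. With the replicate block 331 genes were called, 277 of them higher. The scarcest member had 151 to 446 counts per library. How far depth or the spread between libraries limited the calls was not tested.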
